A study of Homo sapiens with 6 samples.

Results

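The genes described here are the complement genes C1R, C1S, C3, CFB, CFI, CD55, CD59 and SERPING1, together with the long pentraxin PTX3. They were taken from a list of symbols, with no threshold on their values, and make up 9 of the 60660 genes in the count tables. The list was chosen with earlier results of these data known. The RNA of 12Z cells was sequenced, an epithelial line established from endometriosis, a disease in which epithelium and stroma like those of the uterine lining grow outside the uterus. The 3 control libraries came from 12Z cells that received a non-targeting control siRNA, and the 3 knockdown libraries from 12Z cells that received the siRNA LINC01133a (10 nM), which targets the long noncoding RNA LINC01133. All cells were collected 72 h after transfection. The comparison asks which of these genes differed when LINC01133 was depleted in this 1 line by this 1 siRNA, so that effects of the loss of LINC01133 and other effects of the siRNA cannot be told apart.

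Complement is a cascade of blood and tissue proteases. In the classical pathway, C1r activates C1s, which cleaves C4 and C2 to build a convertase that splits C3, and in the alternative pathway factor B supplies the protease of the convertase. Host cells limit the cascade with C1 inhibitor, which inactivates C1r and C1s, with factor I, which degrades C3b and C4b with the help of cofactors, with CD55, which dissociates convertases, and with CD59, which blocks the membrane attack complex. PTX3 is a secreted pattern recognition protein that binds C1q and is made locally by many cell types during inflammation. Complement genes are expressed in endometrium and in endometriotic lesions as well as in liver.

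The siRNA is shown because its seed, positions 2 to 8 of each strand, can pair with other transcripts. The seed is in capitals and both strands are written 5′ to 3′.
LINC01133a guide strand: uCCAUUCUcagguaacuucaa
LINC01133a passenger strand: gAAGUUACcugagaauggatt
The guide matched chr1:159976669-159976687 of GRCh38 on the plus strand, in an exon of LINC01133 held by 3 of its 5 annotated transcripts. LINC01133 had 859, 726 and 808 counts in control libraries 1 to 3 and 153, 135 and 122 in knockdown libraries 1 to 3. Its level was 25.4 ± 0.396 CPM (counts relative to the library total, scaled with trimmed mean of M-values, TMM, factors, mean ± SD, n = 3) in control cells and 4.11 ± 0.145 in knockdown cells.

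No 7-base match to the seed of either strand was present in the 3′ UTRs of C1R, C1S, C3, CFB, SERPING1, CFI or PTX3 in their canonical transcripts. A guide seed match was present once in the 3′ UTR of CD55, at chr1:207359895-207359901 on the plus strand, and once in that of CD59, at chr11:33706871-33706877 on the minus strand. The matched bases are in capitals.
CD55 site: tcgtatttAGAATGGgatcacga
CD59 site: gaaagtctAGAATGGgtccctgg
Among 12538 tested genes with an annotated 3′ UTR, 17.1% held this 7-base word. Their median log2 fold change was -0.09, against 0.00 for genes without it (0.0014 before rounding), and 11.7% of them were called lower, against 5.83%. The 8-base match was held by 5.77% of genes, of which 17.1% were called lower against 6.2% of the others, and neither CD55 nor CD59 held it. CD55 and CD59 had the smallest differences of all tested members. Whether seed matches bear on the members, directly or through other genes, was not tested.

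In knockdown cells, transcripts of the classical pathway proteases C1R and C1S, of the central component C3 and of PTX3 were lower than in control cells. PTX3 was reduced most, to 28.9% of its control level. SERPING1 and CFI, which encode C1 inhibitor and factor I, were lower by less than 1.5-fold, and no difference was detected in CD55 or CD59. CFB had no counts in any library. A gene was called lower or higher at a fold change over 1.5 with an adjusted p under 0.05 in the edgeR quasi-likelihood test, adjusted by Benjamini-Hochberg over the 15155 genes tested. By this rule 4 of the 8 tested members were called lower and 0 higher, where 6.43% of all tested genes were called lower and 5.3% higher. By the adjusted p alone, 6 of the 8 members were lower and 0 higher, against 25% and 23.3% of all tested genes. The 3 knockdown libraries lay entirely below the 3 control libraries for 7 of the 8 members and entirely above them for 0, against 29% and 28.3% of tested genes. The median log2 fold change of the 8 members was -0.50, and that of all tested genes was 0.00 (0.0032 before rounding). These counts and medians are a description, since the members were chosen with earlier results of these data known. Each of the 8 had at least 120 counts in every library. A lower value in a whole culture may come from fewer cells that express a gene or from less RNA per cell, which cannot be told apart here.

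**Figure D1:**
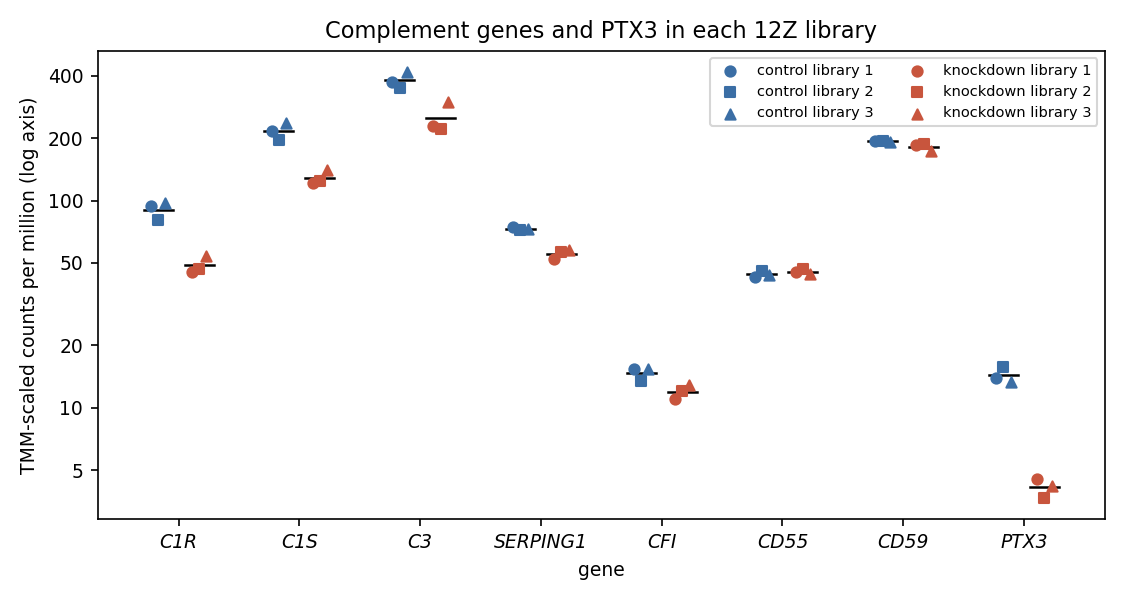
Level of the 8 members with counts in each library in TMM-scaled CPM on a log axis, with control libraries in blue and knockdown libraries in red, marker shape for the library number and bars for group means (n = 3). The groups are apart for C1R, C1S, C3, SERPING1, CFI, CD59 and PTX3 and overlap for CD55.

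**Figure D2:**
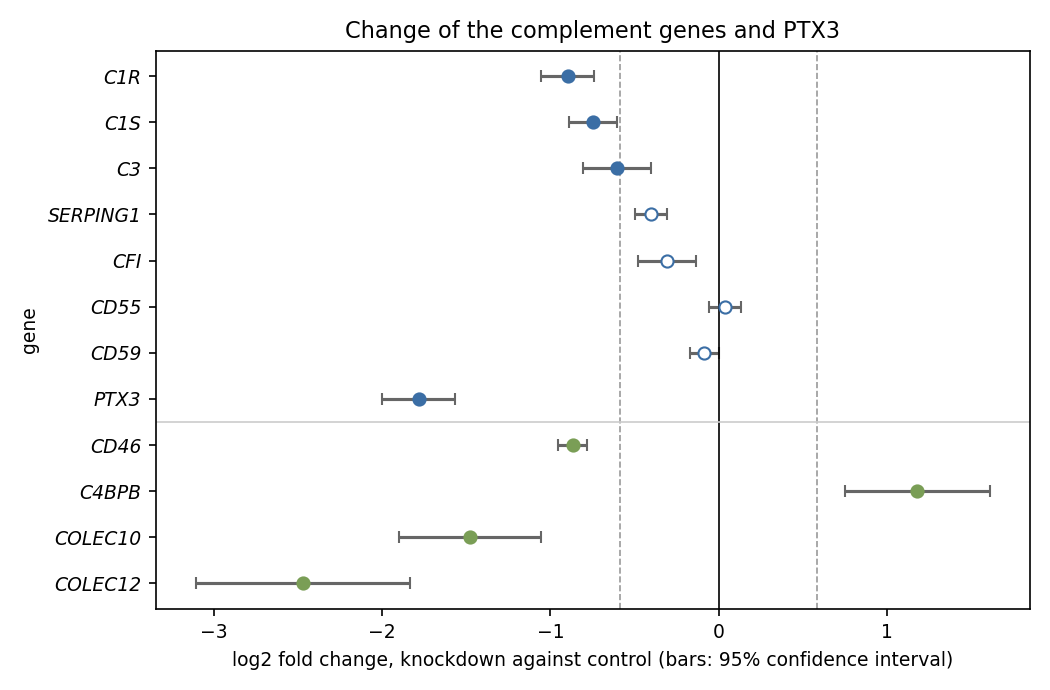
Log2 fold change of knockdown against control for members (blue) and called genes among the other complement genes (green), with bars for the 95% confidence interval and dashed lines at a fold change of 1.5. Filled points passed both the fold change and the adjusted p. PTX3, C1R, C1S and C3 are the filled members, and C4BPB lies on the higher side.

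C1R and C1S lie next to each other on chromosome 12 and encode the paired serine proteases of the C1 complex. C1R (ENSG00000159403.18, chr12:7080214-7092540, minus strand, 11 exons in its canonical transcript) had 93.6, 80.6 and 97.1 CPM in control libraries 1 to 3 and 45.1, 46.8 and 54.2 CPM in knockdown libraries 1 to 3. The highest knockdown library was well below the lowest control library. C1R was at 53.9% of the control level, with a log2 fold change of -0.90 (SE 0.074, 95% confidence interval -1.06 to -0.74, adjusted p = 5.38e-07). Over 25.2% of its canonical transcript, C1R shares exon sequence with its neighbour C1RL on the same strand, and reads there are assigned to neither gene. For C1RL itself the log2 fold change was -0.38 (adjusted p = 0.0425), with overlapping groups.

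C1S (ENSG00000182326.15, chr12:6988259-7071032, plus strand, 12 exons) was the more abundant of the pair, with 216, 197 and 236 CPM in control libraries 1 to 3. In knockdown libraries 1 to 3 it had 121.5, 125 and 140.5 CPM, which again did not overlap with control. Its log2 fold change was -0.75 (SE 0.065, 95% confidence interval -0.89 to -0.61, adjusted p = 8.9e-07), at 59.7% of the control level. No exon of its canonical transcript was shared with another gene. C1R and C1S fell in all 3 knockdown libraries. The ratio of C1R to C1S, in counts per kilobase of transcript, was 0.466, 0.442 and 0.445 in control and 0.4003, 0.404 and 0.416 in knockdown libraries. The log2 ratio thereby differed by -0.15 between groups, with an exact two-sided permutation p of 0.1, the smallest that 3 libraries against 3 can give. The ratio in each library understates C1R, which was counted over 74.8% of its transcript where C1S was counted over 100%. The difference between groups in this log2 ratio does not depend on the length used.

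C3, whose cleavage is the point where the complement pathways meet, is encoded by 41 exons on chromosome 19 (ENSG00000125730.17, chr19:6677704-6730562, minus strand). It had 375, 349 and 417 CPM in control libraries 1 to 3 and 230.0, 220.5 and 300.3 CPM in knockdown libraries 1 to 3. Knockdown library 3 was closer to control library 2 than to the other knockdown libraries, but the groups did not overlap. The mean fell from 380.2 ± 34.2 to 250.3 ± 43.6 CPM (SD, n = 3), with a log2 fold change of -0.60 (SE 0.095, 95% confidence interval -0.81 to -0.40, adjusted p = 0.000157). The call of C3 depended on its fold change, which lay close to the 1.5-fold limit. Without control library 3 it was -0.53, without knockdown library 1 it was -0.54, without knockdown library 2 it was -0.52 and with library size alone as the scaling it was -0.54, and in these 4 settings C3 was no longer called. Its adjusted p stayed at or below 0.00154 in every setting tried.

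**Figure D3:**
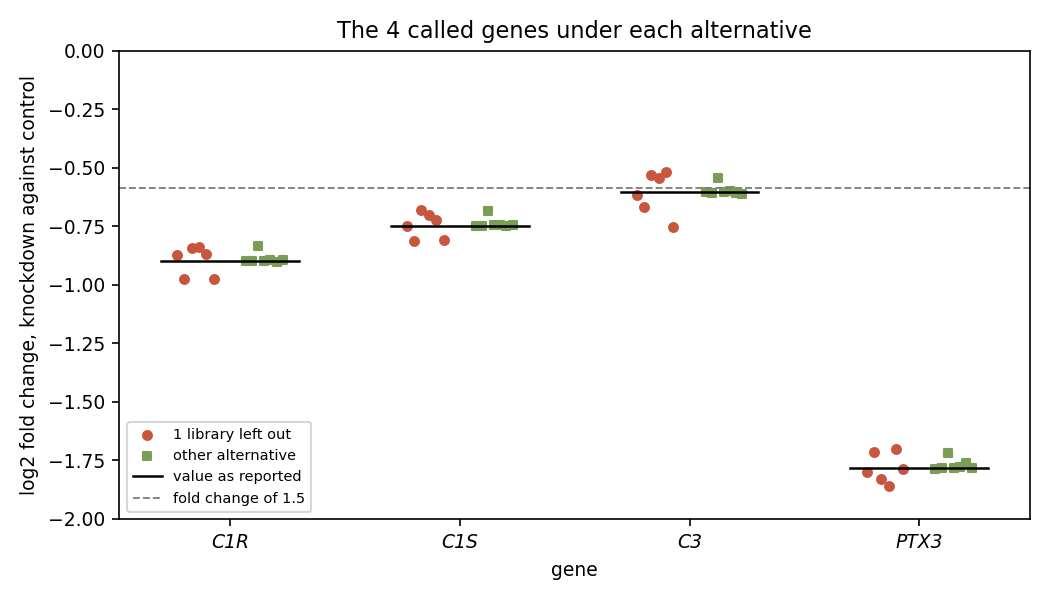
Log2 fold change of the 4 called members, C1R, C1S, C3 and PTX3, with circles for fits without 1 library, squares for the other settings, a black bar for the value in the text and a dashed line at a fold change of 1.5. C3 crosses the line in 4 of 13 settings, while C1R, C1S and PTX3 stay beyond it in each.

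CFB, which encodes factor B of the alternative pathway, could not be evaluated. CFB (ENSG00000243649.9, chr6:31945650-31952086, plus strand, 18 exons) was listed at 0 counts in all 6 libraries on either strand. Its canonical transcript shares 90.8% of its length, on the same strand, with the overlapping gene ENSG00000244255.5, and a read in shared exons is counted for neither. The overlapping gene was also listed at 0. The 0 is therefore not a measure of CFB expression, and no limit is given for it. C2, the classical pathway counterpart of factor B beside CFB, shares 69.9% of its transcript with CFB and that same overlapping gene and had 0 to 5 counts.

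SERPING1 encodes C1 inhibitor, the serpin that inactivates C1r and C1s. SERPING1 (ENSG00000149131.17, chr11:57597387-57619171, plus strand, 8 exons) had 74.3, 72.1 and 73.1 CPM in control libraries 1 to 3 and 52.3, 56.4 and 57.5 CPM in knockdown libraries 1 to 3. Control libraries varied little, and all knockdown libraries were lower. The log2 fold change was -0.40 (SE 0.044, 95% confidence interval -0.50 to -0.31, adjusted p = 6.52e-06), so the difference was larger than the spread between replicates but below the fold limit. The proteases and their inhibitor were then set against each other within each library. The ratio of C1R plus C1S to SERPING1, in counts per kilobase of transcript, was 2.91, 2.69 and 3.17 in control libraries 1 to 3. It was 2.22, 2.12 and 2.36 in knockdown libraries 1 to 3, lower than in every control library. C1R is understated in this ratio too, as its exons shared with C1RL receive no counts. The mean log2 ratio went from 1.54 ± 0.12 to 1.16 ± 0.077 (SD, n = 3), a difference of -0.39, with an exact two-sided permutation p of 0.1, again the smallest possible among 20 regroupings.

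**Figure D4:**
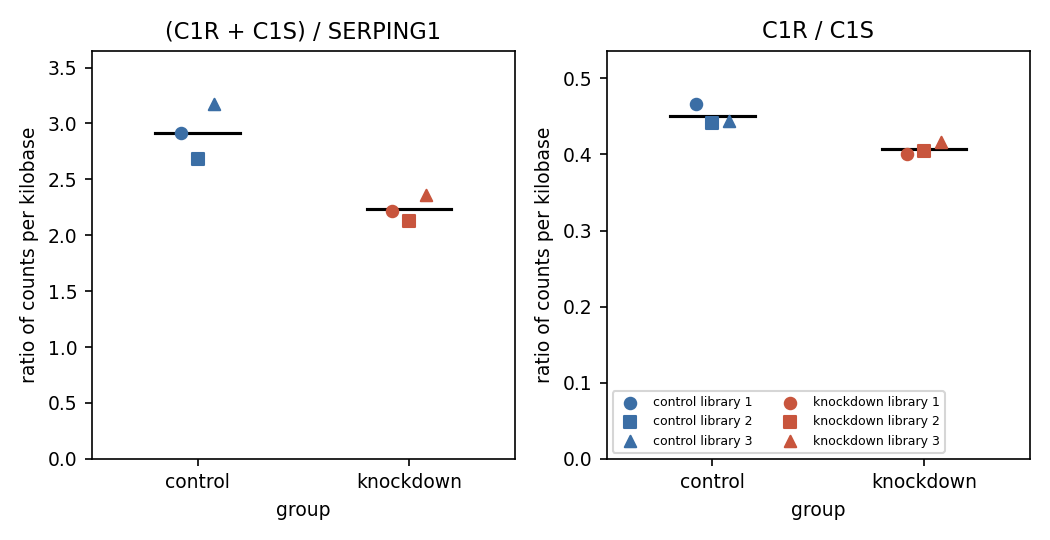
Ratios of counts per kilobase of canonical transcript within each library, for C1R plus C1S over SERPING1 and for C1R over C1S, with marker shape for the library number and bars for the geometric mean of each group (n = 3). Both ratios are lower in the 3 knockdown libraries than in any control library, from 2.12 to 2.36 against 2.69 to 3.17 and from 0.4003 to 0.416 against 0.442 to 0.466. Both understate C1R, whose exons shared with C1RL receive no counts.

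CFI encodes factor I, the protease that inactivates C3b and C4b. CFI (ENSG00000205403.13, chr4:109731008-109802150, minus strand, 13 exons) had 15.4, 13.5 and 15.4 CPM in control libraries 1 to 3 and 11, 12.1 and 12.9 CPM in knockdown libraries 1 to 3. The lowest control library was only slightly above the highest knockdown library. The log2 fold change was -0.31 (SE 0.080, 95% confidence interval -0.48 to -0.14, adjusted p = 0.00621), below the fold limit, and the adjusted p ranged from 0.000533 to 0.0466 over the other settings. CFI shares 79% of its transcript with the overlapping gene ENSG00000285330.1 and is counted incompletely, so its level is a lower limit.

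The smallest differences were those of the membrane-bound regulators CD55 and CD59. CD55, decay-accelerating factor (ENSG00000196352.16, chr1:207321519-207386804, plus strand, 10 exons), had 42.7, 45.9 and 43.7 CPM in control libraries 1 to 3 and 45.1, 46.5 and 44.3 CPM in knockdown libraries 1 to 3. The groups overlapped. The log2 fold change was 0.04 (SE 0.044, adjusted p = 0.488), and its 95% confidence interval of -0.06 to 0.14 lay well inside the 1.5-fold limits.

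CD59, protectin (ENSG00000085063.17, chr11:33703010-33736479, minus strand, 4 exons), had 194, 194 and 191 CPM in control libraries 1 to 3 and 185, 188 and 172 CPM in knockdown libraries 1 to 3. All knockdown libraries were below all control libraries, by a small margin. The log2 fold change was -0.09 (SE 0.040, 95% confidence interval -0.17 to -0.0001, adjusted p = 0.0906), which did not pass the adjusted p. CD46, the third membrane regulator of nucleated cells and a cofactor for factor I, was not among the 9 genes but belonged to the wider complement list described below. It had 266, 278.5 and 274 CPM in control libraries 1 to 3 and 146, 146 and 157 CPM in knockdown libraries 1 to 3, and fell to 54.8% of control (log2 fold change -0.87, SE 0.041, adjusted p = 3.54e-09). CD46 held no guide seed match, but its 3′ UTR held 1 match to the passenger seed, at chr1:207794654-207794660, where CD55 held none. That word was present in 13.6% of tested genes with a 3′ UTR, with a median log2 fold change of -0.04 against -0.01 for genes without it. Of genes with the word, 8.04% were called lower, against 6.65% of those without. In CD46 the match to the passenger strand at this site was longer than the seed, at 10 bases. The other members and called complement genes had at most 9 anywhere in the transcript. Whether this match bears on the level of CD46 was not tested.
CD46 site: tcaggaagGTAACTTcattttgt

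PTX3 encodes the long pentraxin, whose expression in many cells follows interleukin-1 and tumour necrosis factor. PTX3 (ENSG00000163661.4, chr3:157436850-157443633, plus strand, 3 exons) had 477, 452 and 417 counts in control libraries 1 to 3 and 174, 123 and 120 counts in knockdown libraries 1 to 3. In CPM these were 13.9, 15.7 and 13.3 in control and 4.56, 3.69 and 4.21 in knockdown cells. The groups were far apart relative to their spread, with means of 14.4 ± 1.24 and 4.15 ± 0.436 CPM (SD, n = 3). The log2 fold change was -1.78 (SE 0.10, 95% confidence interval -1.999 to -1.565, adjusted p = 1.84e-08), and 55 of the 15155 tested genes had a lower one. Over the alternative settings it ranged from -1.86 to -1.70. VEPH1, on the opposite strand, overlaps 3.8% of the PTX3 transcript, and with a fold change of -0.57 on the log2 scale (adjusted p = 0.00201) it was not called.

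The 250 bases before the start of PTX3, from RefSeq on GRCh38.p14 (chr3:157436600-157436849, plus strand), are shown because PTX3 changed most and NF-kB and C/EBP factors are among its known inducers. Capitals mark matches to the C/EBP word TTGCNNAA and to the NF-kB motif on either strand.
PTX3 upstream: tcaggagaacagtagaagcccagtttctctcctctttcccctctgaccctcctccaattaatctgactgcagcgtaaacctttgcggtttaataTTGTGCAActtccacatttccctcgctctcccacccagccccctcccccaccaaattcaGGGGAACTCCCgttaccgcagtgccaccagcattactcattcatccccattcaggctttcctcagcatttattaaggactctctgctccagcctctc
The NF-kB motif matched at positions -97 and -96 in 1 overlapping stretch, and C/EBP matched at -156 on the minus strand, with positions counted from the start site. The full windows, which run from 250 bases before to 50 after a start, were searched for 6 motifs. NF-kB was found in 11.3% and C/EBP in 10.5% of the 35116 windows of all genes. Windows were found for 6 of the 9 genes. Of the 2 C1R windows, the one ending upstream at chr12:7092695 held C/EBP at -106, and the one ending upstream at chr12:7092143 held C/EBP at -167 and a gamma-activated site (TTCNNNGAA, found in 7.66% of windows) at -86. The CFB window held NF-kB at -112, the interferon response word at -139, a gamma-activated site at -92 and TATAAA at -30, and the 4 CD59 windows held C/EBP, AP-1 or gamma-activated site words. The CFI and CD55 windows held none of the 6 motifs, which were NF-kB, C/EBP, the gamma-activated site, the interferon response word GAAANNGAA (8.11%), AP-1 (TGANTCA, 7.71%) and TATAAA (11.5%). The gamma-activated site and AP-1 words read the same on both strands. These matches are a description of sequence, and binding of a factor was not measured.

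Levels were then compared between genes as RPKM, that is CPM per kilobase of canonical transcript. In control cells, C1S (80.6 ± 7.26 RPKM, SD, n = 3) and C3 (72.7 ± 6.55 RPKM) were the most abundant members, and their libraries overlapped. SERPING1 was at 39.98 ± 0.622 RPKM, CD55 at 17.04 ± 0.6355 RPKM and PTX3 at 7.61 ± 0.657 RPKM, each apart from the next. The levels of the other members depended on the length used, because exons shared with another gene on the same strand receive no counts. Per kilobase of whole transcript, C1R was at 36.4 ± 3.502, CD59 at 25.5 ± 0.252 and CFI at 7.46 ± 0.562 RPKM in control cells. Over the unshared part alone, a length chosen after seeing the data, C1R was at 48.6 ± 4.68, CD59 at 27.8 ± 0.275 and CFI at 35.5 ± 2.68 RPKM. C1R thus lay above SERPING1 by the unshared length and not by the whole length, and CFI lay above CD59 or beside PTX3. In knockdown cells, C1S (48.1 ± 3.78 RPKM) and C3 (47.8 ± 8.33 RPKM) still led, and PTX3 was lowest, at 2.20 ± 0.232 RPKM, by either length. C1R was below CD59 by the whole length, at 19.6 ± 1.94 against 24.02 ± 1.085 RPKM, and level with it by the unshared length, at 26.2 ± 2.597 against 26.2 ± 1.18 RPKM, so their order is not settled.

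Within groups, C1R, C1S, C3 and CFI were each lowest in control library 2 and highest in knockdown library 3, as a description over 3 libraries a group. SERPING1 was too, with smaller deviations of -0.022 and 0.055 on the log2 scale. The pattern was not particular to these members, as C1RL, STAT2 and IRF7 were also lowest and highest in those libraries. The share of all genes with this pattern was not counted. In control library 2, C1R, C1S, C3 and CFI were 0.162, 0.133, 0.120 and 0.128 below their control means on the log2 scale. PTX3 was in that library 0.136 above its own mean. In knockdown library 3, C3 was 0.277, C1R 0.159, C1S 0.126 and CFI 0.106 above the knockdown mean, while CD59 was 0.075 below it. PTX3 was highest in knockdown library 1, at 0.138. C1R, C1S, C3 and CFI were thus low in control library 2 where PTX3 was high. The part of this spread in the group difference was not tested.

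**Figure D5:**
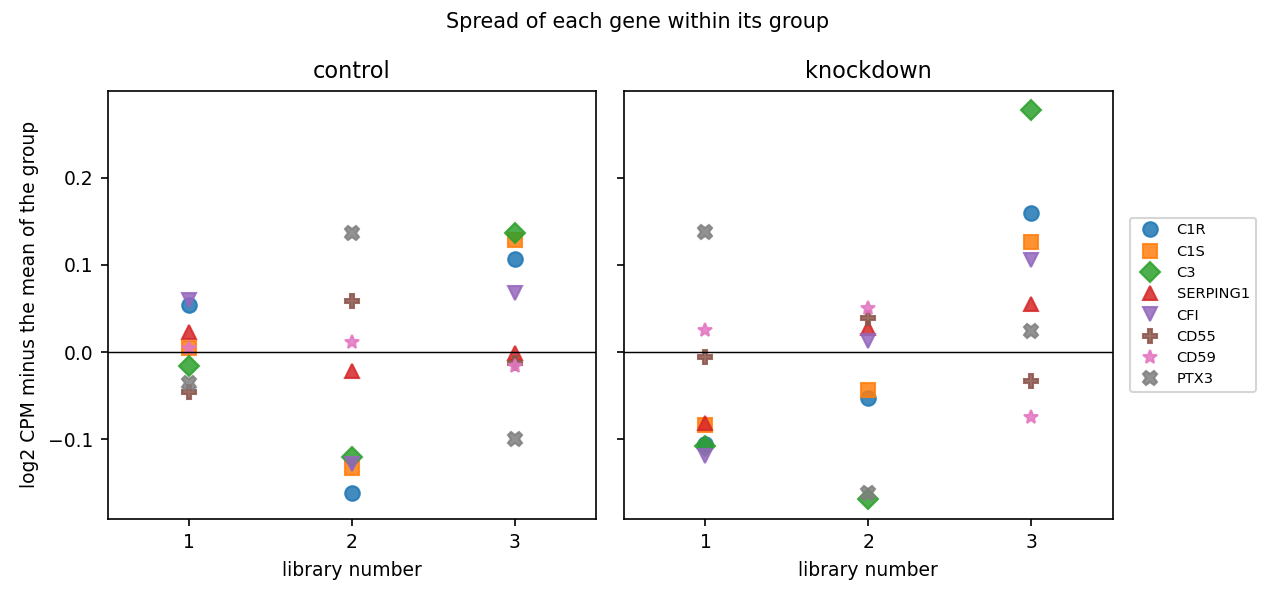
Deviation of each member from its own group mean in log2 CPM, by library, with control cells on the left and knockdown cells on the right and a marker for each gene. C1R, C1S, C3 and CFI lie low in control library 2 and high in knockdown library 3, while PTX3 lies high in control library 2.

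The wider complement system was examined with a list of 57 further genes, of which 23 had no counts in any library and 19 were tested. Of these 19, 3 were called lower and 1 higher, where 6.43% of all tested genes were called lower and 5.3% higher. Their median log2 fold change was -0.18. By the adjusted p alone, 8 of the 19 were lower and 3 higher, against 25% and 23.3% of all tested genes. The genes called lower were CD46 and the collectins COLEC10 and COLEC12, lectin pathway and scavenger proteins. COLEC10 had 220, 256 and 152 counts in control libraries and 90, 75 and 75 in knockdown libraries (log2 fold change -1.48, SE 0.19, adjusted p = 3.47e-05). The 3′ UTR of COLEC12 held 1 guide seed match, at chr18:318079-318085 on the minus strand. COLEC12 was at low depth, with 35, 31 and 40 counts in control and 9, 4 and 7 in knockdown libraries (log2 fold change -2.47, SE 0.29, adjusted p = 1.52e-05). C4BPB, the beta chain of the C4b binding protein, was called higher, from 36, 42 and 47 counts to 91, 123 and 87 (log2 fold change 1.18, SE 0.20, adjusted p = 0.000295). C4BPA, the alpha chain of the same protein, had only 0 to 2 counts a library and was not tested.

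Other regulators and components moved less. CLU, which encodes the terminal pathway inhibitor clusterin, was at 118, 114 and 120 CPM in control and 157, 158.5 and 143 CPM in knockdown libraries, above control in all 3 but below the fold limit (log2 fold change 0.38, adjusted p = 1.35e-05). For C5, the first component of the terminal pathway, the log2 fold change was 0.37 (adjusted p = 0.0257). That of THBD, thrombomodulin, was -0.49 (adjusted p = 0.00246), and that of C1QBP, which encodes a C1q-binding protein, was -0.20 (adjusted p = 0.000915). The C4 genes C4A and C4B, near-identical copies whose reads are uncertain, had log2 fold changes of 0.23 and 0.33 with adjusted p of 0.304 and 0.106. The C1q genes C1QA, C1QB and C1QC and the lectin pathway protease MASP1 had no counts, so that within the C1 complex the protease genes alone were detected at this depth.

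Among the other pentraxins, CRP and APCS, the short pentraxins of liver, had no counts. The 2 tested genes, the neuronal pentraxins NPTXR and NPTX1, had log2 fold changes of -0.41 (adjusted p = 0.000531) and -0.67 (adjusted p = 0.0776), and neither was called. Of 9 listed binding partners of PTX3, 4 were tested and 1 was called lower, where 6.43% of all tested genes were called lower. That gene, TNFAIP6, encodes the hyaluronan-binding protein TSG-6, which crosslinks hyaluronan with PTX3 in the cumulus matrix. It went from 78, 74 and 61 counts in control to 20, 19 and 23 in knockdown libraries (log2 fold change -1.86, SE 0.21, adjusted p = 8.97e-06), close in size to PTX3. CD44, FGF2 and VCAN were not called, with log2 fold changes of -0.19, -0.10 and -0.74 and adjusted p of 0.0181, 0.176 and 0.0663.

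C1 inhibitor also restrains the contact system, which releases bradykinin, and fibrinolysis. Of 8 genes on that list, 4 were tested and 2 called lower, where 6.43% of all tested genes were called lower. PLAT, tissue plasminogen activator, had 31.2, 38.6 and 24.8 CPM in control and 10.6, 10.0 and 9.08 CPM in knockdown libraries (log2 fold change -1.66, SE 0.13, adjusted p = 3.62e-07). BDKRB1, the inducible bradykinin receptor, had a log2 fold change of -0.65 (SE 0.062, adjusted p = 1.87e-06), while BDKRB2 and F12 were not called (adjusted p = 0.0507 and 0.510).

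A list of cytokines, receptors, signalling genes and transcription factors linked to induction of C3, the C1 proteases or PTX3 in other cells held 28 tested genes. Not all of them are inducers, since the list also held inhibitors of this signalling such as TNFAIP3. Of the 28, 6 were called lower and 0 higher, against 6.43% and 5.3% of all tested genes. The median log2 fold change of the 28 was -0.11. By the adjusted p alone 14 were lower and 2 higher, against 25% and 23.3% of all tested genes. Receptors made up 4 of the 6, but the other receptors on the list, OSMR, IFNGR1, IL6R and IFNGR2, were not called. Their log2 fold changes were -0.37, -0.23, 0.03 and -0.03 (adjusted p = 2.43e-05, 0.000508, 0.891 and 0.554). IL1R1, the interleukin-1 receptor, had 248.8, 256.5 and 238 CPM in control and 98.6, 99.5 and 104 CPM in knockdown libraries (log2 fold change -1.30, SE 0.041, adjusted p = 1.2e-10). LIFR, IL6ST and TNFRSF1A, receptors of the interleukin-6 family and of tumour necrosis factor, had log2 fold changes of -0.87, -0.63 and -0.61 (adjusted p = 6.88e-08, 1.08e-07 and 5.25e-08). The transcription factor gene CEBPB and the NF-kB target TNFAIP3 had -0.73 and -0.65 (adjusted p = 4.02e-05 and 1.23e-05). The NF-kB subunit genes NFKB1 and RELA and the gene of STAT3 had log2 fold changes of 0.07, 0.09 and 0.00 (0.0048 before rounding for STAT3), with adjusted p of 0.210, 0.0778 and 0.922. STAT2 and IRF7, of the interferon response, had 0.50 and 0.35 (adjusted p = 1.9e-05 and 0.00499), below the fold limit. Whether these transcripts bear on those of complement and PTX3 was not tested.

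Of 17 other acute phase genes, 10 had no counts and 2 were tested. Of the 10, SERPINA3 shares 100% of its transcript with a gene on the same strand, so that its 0 is not a measure of expression. SAA4 shares 75.6% and SAA2 46.4%, so that their 0 covers only the unshared part of the transcript. A2M, which encodes the protease inhibitor alpha-2-macroglobulin, was called higher (log2 fold change 0.93, SE 0.10, adjusted p = 7.44e-06), and SERPINA1 was not called (-0.51, adjusted p = 0.222).

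Markers of other cell types that make complement were read in the same libraries. ALB was at 0 to 2 counts, TTR, AHSG, CD3E and TYROBP were at 0, and PTPRC was at 0.608 to 0.870 CPM in control and 0.480 to 0.806 CPM in knockdown libraries. CD14, called lower, was an exception among 8 leukocyte markers, at 49.3 to 55.5 CPM in control and 25.5 to 27.5 CPM in knockdown libraries, and it carried most of their summed level of 50.1 to 56.5 CPM and 26.2 to 28.1 CPM. The summed level of 4 hepatocyte markers was 1.199 to 1.377 CPM in control and 0.30 to 0.421 CPM in knockdown libraries, where APOA1 was called lower (log2 fold change -1.92). That of 4 endothelial markers was 7.46 to 8.28 CPM and 7.36 to 8.40 CPM, a sum in which CDH5 was called higher (log2 fold change 1.45) and TIE1 lower (-1.58). The 8 epithelial markers summed to 6200 to 6540 CPM in control and 3969 to 4151 CPM in knockdown libraries. Of these 8, all tested, 4 were called lower, where 6.43% of all tested genes were called lower. The 4 were CDH1, KRT7, KRT8 and KRT19 (log2 fold changes -2.02, -0.59, -0.63 and -0.88). The 7 stromal markers summed to 3189 to 3679 CPM and 3094 to 3194 CPM, with PDGFRA called lower (-1.52) and MME higher (0.82). Keratin genes were high in these cells (KRT8 at 3140 to 3294 CPM in control libraries), but the epithelial genes EPCAM and CLDN4 were near 0, at 0.288 to 0.556 and 0.383 to 0.576 CPM, and the stromal collagen gene COL1A1 was at 2555 to 2963 CPM. The part of the fall in epithelial markers in the complement results was not tested.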

How the data were processed

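RNA from 6 samples of 12Z cells, described as biological replicates, was sequenced as poly-A enriched libraries. The authors aligned the reads with STAR 2.7.6a to GRCh38.p13, kept uniquely mapped reads and deposited counts per GENCODE v36 gene without normalization, for either strand and both. The values used were those of column 4 (reads on the strand opposite to that of read 1), with 93.9% to 94.1% of stranded counts. Depth was 29703111 to 34761062 counts in control and 27742562 to 37551194 in knockdown libraries, and rows that name no gene, 8.5% to 9.44%, were left out. Replicate SD and SE give the precision of each value.

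Genes were filtered with filterByExpr (minimum count 10), scaled with TMM and tested with the quasi-likelihood method of edgeR 4.0.16 (R 4.3.3), knockdown against control, with no covariate. Of 60660 gene IDs, 60419 matched a symbol. STAR assigns no gene to reads in exons shared by genes. Transcript lengths, overlaps and 3′ UTRs came from Ensembl canonical transcripts of GENCODE v44, since v36 was not used here. RPKM and ratios use these lengths. Alternatives were DESeq2 1.42.0, other scalings and filters, the unstranded column, a replicate block and each library left out. Named genes were the members, LINC01133, every called gene of each list (with none called, its 2 genes of highest level) and the 3 genes most correlated with the highest and lowest member. Other named genes were chosen after their values were seen. The members and lists were chosen with earlier results of these data known.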

Additional observations from a re-analysis of the deposited data

How the results depend on the processing

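For the 9 genes formed by LINC01133 and the 8 tested members, 113 of 117 values under the alternatives kept their direction and their side of the limits, and the 4 others were those of C3, which stayed lower. The number of members called lower was 4, and 3 without C3 in the 4 settings named for it. The 24 other called genes that are named kept theirs in 301 of 311 values. The exceptions fell below the fold limit, and were IL6ST (-0.56 with library size alone and -0.58 without control library 2), TNFRSF1A (-0.54) and KRT8 (-0.56) with library size alone, CEBPB (-0.58 without control library 1) and KRT7 (-0.58 to -0.53 in 5 settings). For 21 of the named genes that were not called, 264 of 272 values were on the same side. VEPH1 passed without control library 3 (-0.64) or knockdown library 2 (-0.65), NPTX1 without knockdown library 2 (-1.03), and VCAN with no filter (-0.74), without control library 3 (-0.93) or without knockdown library 1 (-1.04). STAT3 changed sign near 0, to -0.008 without control library 1 and -0.0057 without knockdown library 1, within a range of -0.008 to 0.0197 with a library left out. COLEC12 and SERPINA1 could not be tested when at least 10 counts were required in every library. Same-numbered libraries did not deviate together (correlations -0.015, 0.005 and 0.057), and a fit with the replicate block called 4 members lower and 1747 genes in all, against 1778 without it. All genes called numbered 1526 with DESeq2, 1541 to 1963 with other filters and 1641 to 1815 with a library left out. Library size alone shifted all genes by 0.0621 on the log2 scale. By the unshared transcript length, the C1R plus C1S to SERPING1 difference was -0.40 in place of -0.39. Low counts limit the values of COLEC12, C4BPB, APOA1 and TNFAIP6.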

Other observations

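The genes whose level followed CD55 most closely over the 6 libraries were TMEM41B, GPD2 and STAU1, with Pearson correlations of 0.975, 0.975 and 0.973 in log2 CPM, and 9 of 10499 genes compared had one above 0.95. For PTX3 they were RAB3D, RAMAC and METTL16, with 0.9996, 0.9994 and 0.999, and 1629 of the same 10499 genes were above 0.95. The libraries fall in 2 groups that differ in PTX3, so any gene that separates the groups evenly has a high correlation with it, and these values are a description over 6 points that share their libraries.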
